A study of Zea mays subsp. mays x Zea mays subsp. mexicana with 20 samples.

Results

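The small RNA loci described here are the clusters of chromosome 10 that collected at least 15 reads over the 6 pollen libraries of the Dcl2 genotypes. Of 85421 clusters in the deposited table, 6061 lay on chromosome 10 and 3073 of these passed that minimum (50.7%). Of the remainder, 886 had no read in any library and 2102 had between 1 and 14. A cluster is a stretch of genome where small RNA reads pile up, and the 3073 had a median length of 1222 bp. They ran along the whole chromosome, whose last cluster ended at 149.4 Mb, in 30 bins of 5 Mb that held between 27 and 193 of them.

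DCL2 is one of the Dicer-like proteins of plants, which cut double-stranded RNA and the stems of long hairpins into short interfering RNAs (siRNAs). The siRNAs are loaded onto Argonaute proteins, which they guide to RNA with a matching sequence. Loss of one Dicer-like protein can lower its own products and can also leave a precursor to another Dicer-like protein. Reads of every length were counted together in these clusters, so the counts do not separate the products of DCL2 from those of other Dicer-like proteins.

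Pollen of 3 genotypes was sequenced in 2 libraries each, called biological replicates in the labels. The dcl2T plants were homozygous for the Dcl2 allele of teosinte *mexicana*, carried in a longer *mexicana* interval on chromosome 5. In dcl2-mu1 plants both copies carried a *Mu* transposon insertion in the untranslated leader of Dcl2, in a line repeatedly backcrossed to the maize inbred W22. The Dcl2 plants carried the functional allele, and wild-type progeny of segregating families served as controls in the study. The genotypes therefore differed by the Dcl2 allele and by any donor sequence kept through the crosses, and these cannot be told apart here. The other 14 samples of the series, pollen and leaf of the pollen drive crosses, were not analysed here. The table holds no gene counts, so the tissue label could not be checked against pollen markers.

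Total counts ranged from 1950081 to 4920576 reads, and dcl2-mu1 replicate 1 was the smallest library. It had no read in 65.9% of the 3073 clusters, against 37.7% in dcl2-mu1 replicate 2. In the other 4 libraries this share ran from 7.68% to 20.5%. Among the 1561 clusters with enough reads to be tested, log2 CPM (reads per 1e+06 reads of the library) of the replicates correlated with r = 0.83 in dcl2T, 0.71 in dcl2-mu1 and 0.78 in Dcl2, across clusters that are not independent. The tested clusters held 98.6% of the reads of the 3073.

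Chromosome 10 took 13.0 ± 0.322% of the reads in dcl2T, 10.9 ± 0.456% in dcl2-mu1 and 11.8 ± 0.574% in Dcl2 (SD, n = 2 each). The values of any pair of genotypes did not overlap, but with 2 libraries each an exact permutation test (two-sided) cannot go below p = 0.33, the value found in each comparison. Without the 10 most abundant clusters the difference of dcl2T from Dcl2 was 0.321 percentage points, against 1.23 points with them, and it ran from 0.826 to 1.64 points with 1 Dcl2 library left out. That of dcl2-mu1 from Dcl2 was -0.865 points with all libraries, -0.459 points without Dcl2 replicate 2, -1.27 points without Dcl2 replicate 1 and -0.543 points without dcl2-mu1 replicate 2. These reads were unevenly spread along the chromosome. The bins from 105 to 110 Mb and from 140 to 145 Mb alone held 47.5% of them in dcl2T, 49.5% in dcl2-mu1 and 44.9% in Dcl2. In each of these bins 1 cluster made up most of the reads. The 7 bins between 35 and 70 Mb, singled out after their values were seen, held 499 of the 3073 clusters but 1.44% of the reads of the chromosome in dcl2T, 1.26% in dcl2-mu1 and 1.41% in Dcl2.

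The first of the 2 largest clusters was Cluster_82886 (108826367 to 108829441 on chromosome 10, with coordinates as deposited). It held 24968 and 24817 CPM in dcl2T, 28615 and 26012 CPM in dcl2-mu1, and 22128 and 22071 CPM in Dcl2. The other was Cluster_84598 (144371858 to 144374883), with 28388 and 24338 CPM in dcl2T, 24344 and 21751 CPM in dcl2-mu1, and 20931 and 22388 CPM in Dcl2. Together they held 39.3% of the chromosome 10 reads in dcl2T, 46.1% in dcl2-mu1 and 37.1% in Dcl2. Neither was called in dcl2-mu1, with log2 fold changes against Dcl2 of -0.07 (SE 0.22) for Cluster_82886 and -0.28 (SE 0.23) for Cluster_84598, and edgeR adjusted p-values of 0.938 and 0.617. In dcl2T against Dcl2 the log2 fold changes were 0.01 (SE 0.22) and 0.13 (SE 0.23). The fold changes are scaled by the TMM method and so differ from ratios of CPM.

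**Figure D1:**
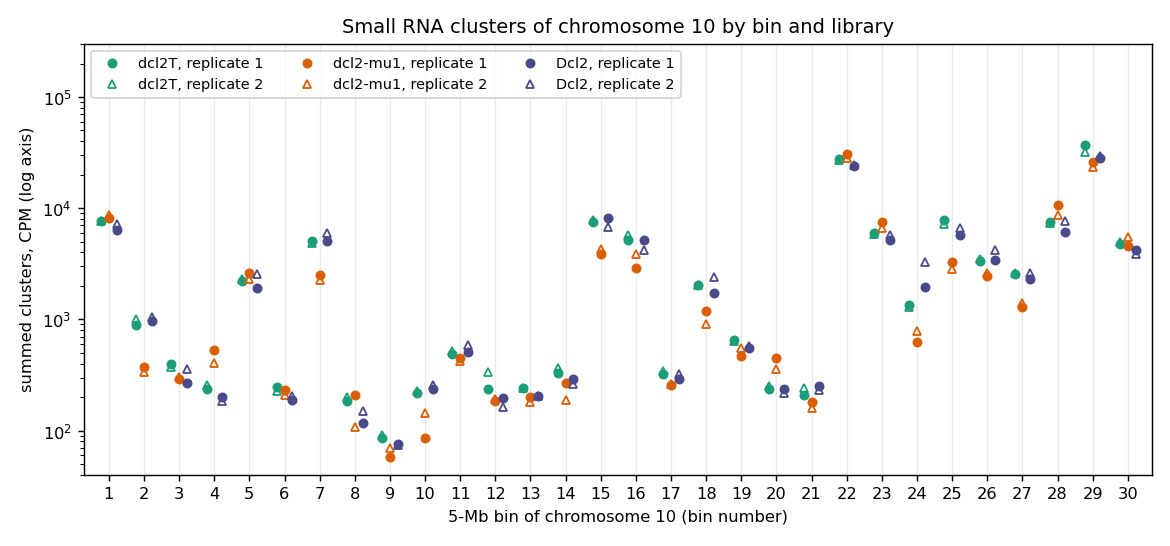
Summed CPM of all clusters in each 5-Mb bin of chromosome 10 (horizontal axis, bin number; vertical axis, CPM on a log scale), with 1 point per library and the genotypes coloured. Bins 22 and 29 hold the most reads in every library and bins 8 to 14 hold few. The dcl2-mu1 points lie below the others in bins 2, 7, 15, 24 and 25, among other bins. They lie above the others in bins 4 and 20 and, by a smaller factor, in bins 1, 22, 23 and 28.

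To map where the genotypes differ, the counts of all clusters were summed over each 5-Mb bin of the 10 chromosomes, and edgeR's quasi-likelihood test was run over all 429 bins. In dcl2T against Dcl2, 1 of the 30 chromosome 10 bins was lower and 0 were higher at an adjusted p of at most 0.05 (Benjamini-Hochberg). At an unadjusted p under 0.05 the counts were 5 lower and 1 higher, and DESeq2 called 4 lower and 0 higher. Over all chromosomes 3.26% of bins were lower and 1.63% were higher in this comparison. The one bin called was that from 115 to 120 Mb. It held 1358 and 1286 CPM in dcl2T, against 1946 and 3307 CPM in Dcl2. The values did not overlap, and the log2 fold change was -1.16 (SE 0.22, edgeR adjusted p = 0.0297).

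A single short cluster carried the difference in that bin. Cluster_83347 (118703684 to 118703864, 181 bp) held 786 and 648 CPM in dcl2T, 261 and 367 CPM in dcl2-mu1, and 1335 and 2714 CPM in Dcl2. It was lowest in both dcl2-mu1 libraries and highest in both Dcl2 libraries. In dcl2T against Dcl2 its log2 fold change was -1.63 (SE 0.39, edgeR adjusted p = 0.384). Without it the bin had a log2 fold change of -0.22 (edgeR adjusted p = 0.432). The bin was also not called without either dcl2T library or without Dcl2 replicate 2. The other 29 bins lay between -0.35 and 0.47 on the log2 scale in dcl2T.

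In dcl2-mu1 against Dcl2 many more bins differed. Of 30 bins, 12 were lower and 2 were higher, which is 40% and 6.67%, against 15.6% lower and 15.9% higher over the 429 bins of the genome. The median log2 fold change was -0.38 over the chromosome 10 bins and -0.01 over all bins. The libraries of dcl2-mu1 and Dcl2 did not overlap in 25 of the 30 bins, against 65.7% of the 429 bins. In dcl2T against Dcl2 they did not overlap in 20 of the 30 bins, against 61.5% of the 429. The 12 lower bins lay at 5 to 10 Mb, 30 to 35 Mb, 45 to 55 Mb, 70 to 75 Mb, 80 to 90 Mb, 100 to 105 Mb and 115 to 135 Mb, and the higher bins at 15 to 20 Mb and 95 to 100 Mb. The first and the last bin of the chromosome were not called, with log2 fold changes of 0.15 each (SE 0.11 and 0.15).

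The largest fall was in the bin from 115 to 120 Mb, the one lower in dcl2T as well. It held 627 and 782 CPM in dcl2-mu1, against 1946 and 3307 CPM in Dcl2, a log2 fold change of -2.04 (SE 0.23, edgeR adjusted p = 0.000933). The comparisons of dcl2T and of dcl2-mu1 share the Dcl2 libraries. The bin from 5 to 10 Mb held 369 and 337 CPM in dcl2-mu1, against 958 and 1044 CPM in Dcl2, a log2 fold change of -1.66 (SE 0.10, edgeR adjusted p = 0.000146). In dcl2T that bin stood at 897 and 1010.0 CPM, close to Dcl2. The bin from 120 to 125 Mb held 3249.6 and 2829.6 CPM in dcl2-mu1, against 5738 and 6673 CPM in Dcl2, a log2 fold change of -1.19 (SE 0.13, edgeR adjusted p = 0.000772). These 3 bins and that from 70 to 75 Mb, at a log2 fold change of -1.02 (SE 0.16), were called in each of 14 other fits of the same bins, those leaving out a library included.

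Several of the bin differences rested on 1 cluster. With the most abundant cluster of each bin left out, 8 of the 14 bins were called in the same direction, 3 were called in the opposite direction and 3 were not called. The bin from 15 to 20 Mb held 533 and 409 CPM in dcl2-mu1, against 198 and 183 CPM in Dcl2, a log2 fold change of 1.13 (SE 0.16, edgeR adjusted p = 0.00208). Without Cluster_79685 the same bin was lower in dcl2-mu1, at -0.88 (edgeR adjusted p = 0.00589). The reverse was found from 85 to 90 Mb, where the log2 fold change was -1.13 with Cluster_81927 and 0.76 without it, and from 130 to 135 Mb, where it was -1.02 with Cluster_84035 and 0.35 without it. The calls at 30 to 35 Mb, 95 to 100 Mb and 125 to 130 Mb were lost.

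From 140 to 145 Mb the largest cluster was not called while others fell. That bin held 26188 and 23417 CPM in dcl2-mu1, against 27995 and 29663 CPM in Dcl2, and was not called, at a log2 fold change of -0.38 (SE 0.14, edgeR adjusted p = 0.0763). Cluster_84598 made up 92.9% of it in dcl2-mu1 and 75.1% in Dcl2. Without that cluster the log2 fold change was -2.17 (edgeR adjusted p = 0.000119), the lowest of the 30 bins in that fit.

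**Figure D2:**
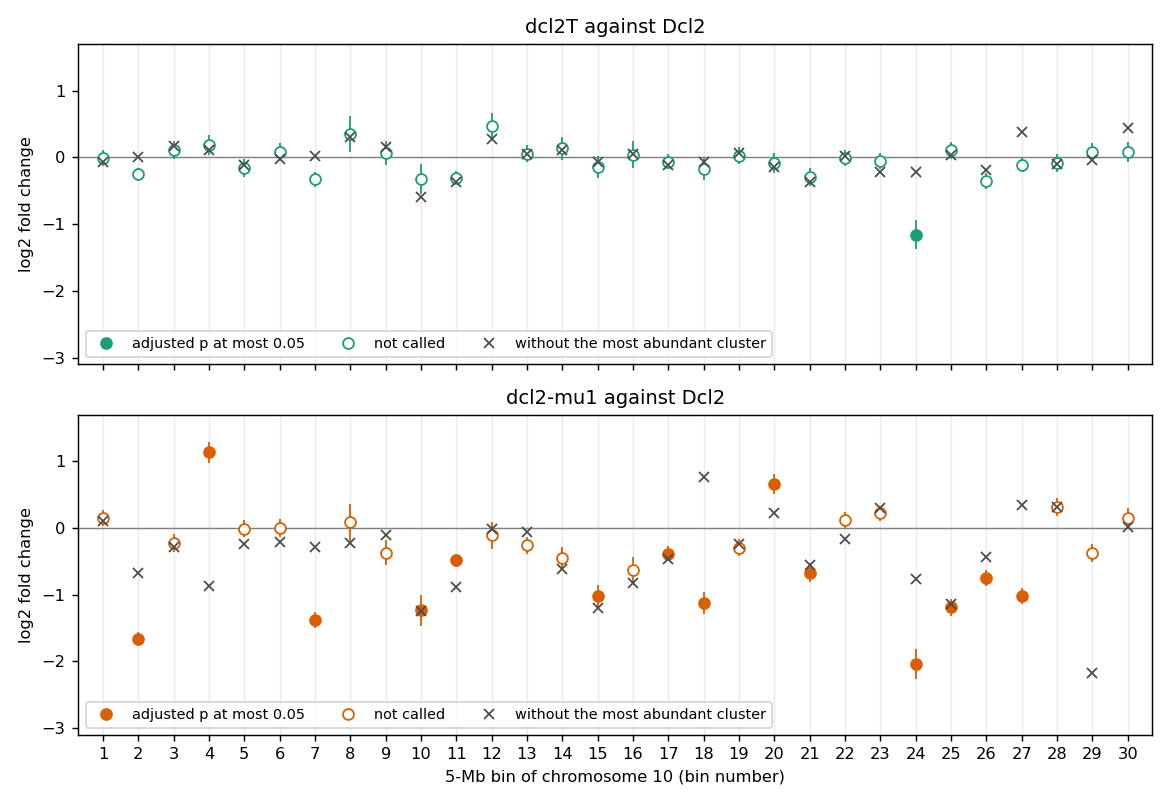
Log2 fold change of each 5-Mb bin against Dcl2 (vertical axis) by bin number (horizontal axis), for dcl2T above and dcl2-mu1 below, with bars of 1 standard error. Filled points passed an adjusted p of 0.05, open points did not, and crosses give the value without the most abundant cluster of the bin. Bin 24 is the one filled point for dcl2T, while 14 are filled for dcl2-mu1, and the cross of bin 29 lies at -2.17.

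In dcl2-mu1 against dcl2T, 12 bins were lower and 2 were higher, against 12.6% lower and 12.8% higher over the genome. The bin from 5 to 10 Mb had the largest difference in this comparison, with 369 and 337 CPM in dcl2-mu1 against 897 and 1010.0 CPM in dcl2T, a log2 fold change of -1.41 (SE 0.10, edgeR adjusted p = 0.000177). The number of lower bins was 6 without either dcl2T library and 7 without Dcl2 replicate 2, a library outside this comparison that enters only the shared estimate of spread.

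Single clusters were tested over the whole table, with 22558 clusters kept by the filter on low counts. Calls required both an adjusted p no larger than 0.01 and a log2 difference of 2 or more, up or down. In dcl2T against Dcl2, 0 of the 1561 chromosome 10 clusters were lower and 0 were higher by edgeR. At an unadjusted p under 0.05 the counts were 28 lower and 30 higher, and DESeq2 called 4 lower and 6 higher. Of all tested clusters 0.00887% were lower and 0.0177% were higher. The median log2 fold change of the chromosome 10 clusters was 0.09 in dcl2T, against 0.07 over all clusters.

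In dcl2-mu1 against Dcl2, 18 chromosome 10 clusters were lower and 7 were higher. These are 1.15% and 0.448% of the 1561 tested, against 0.186% lower and 0.235% higher over all tested clusters. Chromosome 10 held 6.92% of the tested clusters and 42.9% of the 42 lower calls, while each other chromosome held between 1 and 6. Of the 53 higher calls chromosome 10 held 13.2%, and the other chromosomes held between 3 and 8 each. At an unadjusted p under 0.05, 21.9% of the chromosome 10 clusters were lower, against 9.53% on the other chromosomes, and 5.06% were higher, against 5.09%. The median log2 fold change was -0.75 over the chromosome 10 clusters and -0.30 over all clusters. Scaling by library size alone moved these medians to -0.43 and 0.02 and gave 21 lower and 16 higher calls, so that the chromosome 10 median stayed below that of all clusters while the split of calls moved. Without dcl2-mu1 replicate 2 the medians were -2.83 over the chromosome 10 clusters and -1.58 over all clusters, while leaving out dcl2-mu1 replicate 1 put them at -0.92 and -0.21.

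The calls depended on the libraries and the model. Without Dcl2 replicate 1 or Dcl2 replicate 2 there were 0 calls on chromosome 10 in this comparison with the same clusters tested, and with the low-count filter run again on the remaining libraries there were 27 lower and 4 higher, or 42 lower and 9 higher. Leaving out dcl2-mu1 replicate 1 gave 11 lower and 3 higher. DESeq2 called 82 lower and 22 higher, against 0 of either from an edgeR fit of these 4 libraries alone.

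The 18 lower clusters had a median length of 3547.5 bp and lay between 8.71 and 145 Mb. They held 7.95 ± 0.281% of the chromosome 10 reads in dcl2T, 0.889 ± 0.112% in dcl2-mu1 and 9.45 ± 0.976% in Dcl2 (SD, n = 2 each). No dcl2-mu1 read was found in 8 of the 18. All 18 had non-overlapping libraries of dcl2-mu1 and Dcl2, the contrast that chose them, and the dcl2-mu1 libraries were the lower ones without overlap in 22.7% of all clusters tested. In dcl2T their log2 fold changes against Dcl2 ran from -1.63 to 0.85 with a median of -0.02, and the lowest edgeR adjusted p among them was 0.384. In dcl2-mu1 against dcl2T, 17 chromosome 10 clusters were lower and 5 were higher, against 0.199% lower and 0.164% higher over the whole table. Of the 18, 16 were among the lower, but this comparison uses the same dcl2-mu1 libraries that chose the 18.

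**Figure D3:**
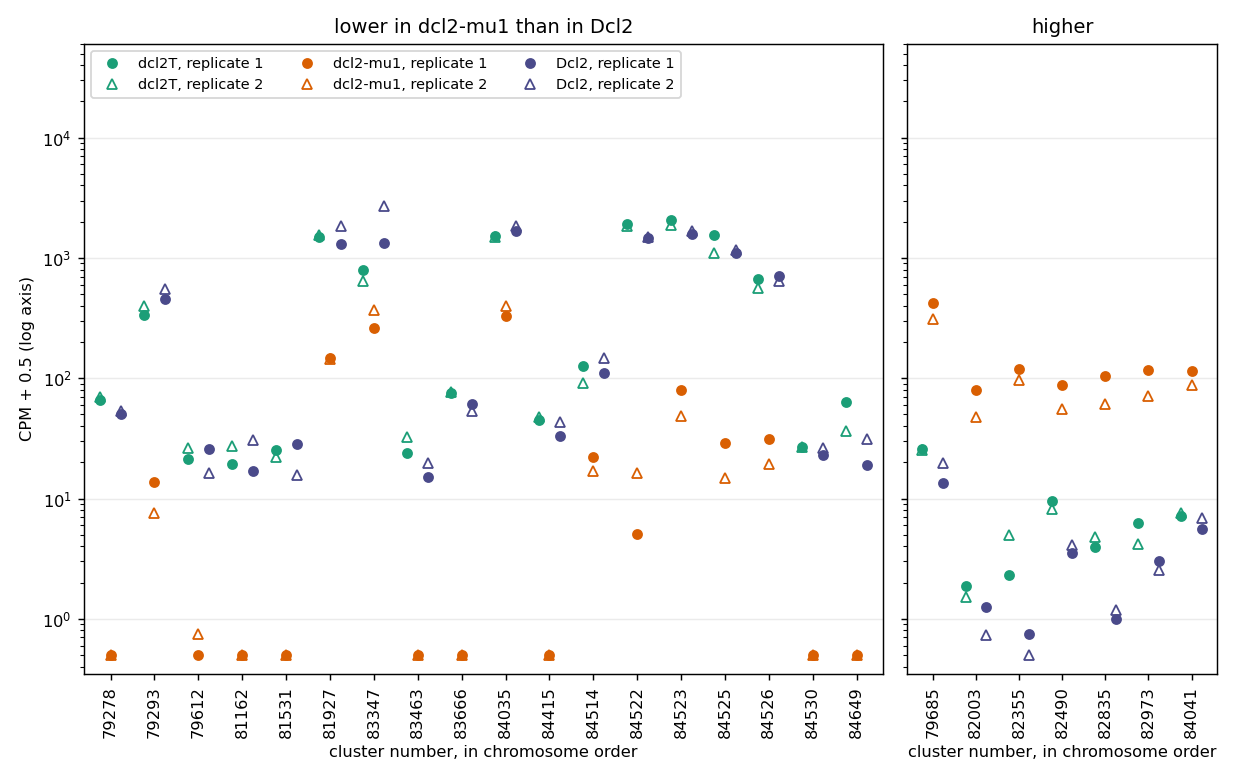
CPM plus 0.5 (vertical axis, log scale) of the 25 chromosome 10 clusters called in dcl2-mu1 against Dcl2, with 1 point per library, in chromosome order and labelled by cluster number (horizontal axis). The 18 lower clusters are on the left and the 7 higher on the right. Among the lower, the dcl2T points lie within 2-fold of the Dcl2 points by their means except in Cluster_83347, where they are lower, and 8 clusters have both dcl2-mu1 points at 0.5, which is no read.

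Clusters called within 10 kb of each other were joined, which left 15 separate stretches among the 18. The one with the most calls, singled out after its values were seen, ran from 143127480 to 143169480 (42.0 kb) and held 4 of them. In this stretch Cluster_84523 (143144995 to 143149789) held 2048 and 1885 CPM in dcl2T, 79.0 and 48.2 CPM in dcl2-mu1, and 1574 and 1688 CPM in Dcl2. The dcl2-mu1 libraries were far below the other 4, and the log2 fold change against Dcl2 was -5.09 (SE 0.30, edgeR adjusted p = 9.78e-05). Its adjusted p ranged up to 0.0193 over 15 other fits, 12 of which called it.

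The other 3 clusters of the stretch were named after their values were seen. Cluster_84522 (143127480 to 143138693) held 1923 and 1827 CPM in dcl2T, 4.62 and 15.9 CPM in dcl2-mu1, and 1469 and 1499.7 CPM in Dcl2, a log2 fold change in dcl2-mu1 of -7.40 (SE 0.66, edgeR adjusted p = 0.00108). Cluster_84525 (143154089 to 143161708) held 1546 and 1107 CPM in dcl2T, 28.7 and 14.4 CPM in dcl2-mu1, and 1105 and 1163 CPM in Dcl2. Cluster_84526 (143165976 to 143169480) held 673 and 561 CPM in dcl2T, 30.8 and 18.9 CPM in dcl2-mu1, and 701 and 638 CPM in Dcl2. In each the dcl2-mu1 values stood apart from the rest, while the dcl2T and Dcl2 values lay close together.

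Summed over these 4 clusters the stretch held 6189.6 and 5379.7 CPM in dcl2T, 143 and 97.5 CPM in dcl2-mu1, and 4849 and 4989 CPM in Dcl2. The Dcl2 mean was 40.9 times the dcl2-mu1 mean. The stretch thus made up between 0.0918% and 0.127% of the chromosome 10 reads in dcl2-mu1 libraries, against between 4.09% and 4.67% in those of dcl2T and Dcl2. Within 50 kb on either side 15 of the 3073 clusters were found in all, the 4 included. In 14 of these both dcl2-mu1 libraries were below both Dcl2 libraries, as they were in 32.3% of the 3073 clusters and in 23.1% of all 44283 clusters of the genome with at least 15 reads. The 14 include the 4 called clusters, which were chosen by this same contrast. Some of the 14 had few reads, and Cluster_84520 had no more than 0.252 CPM in a Dcl2 library, which is 1 read. Of the 15, 7 had no read in dcl2-mu1. Cluster_84532 (143202747 to 143205654), named after its values were seen, was the exception, with 23.1 and 12.2 CPM in dcl2-mu1 against 7.82 and 12.7 CPM in Dcl2. Without the stretch, chromosome 10 kept 14 lower calls.

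**Figure D4:**
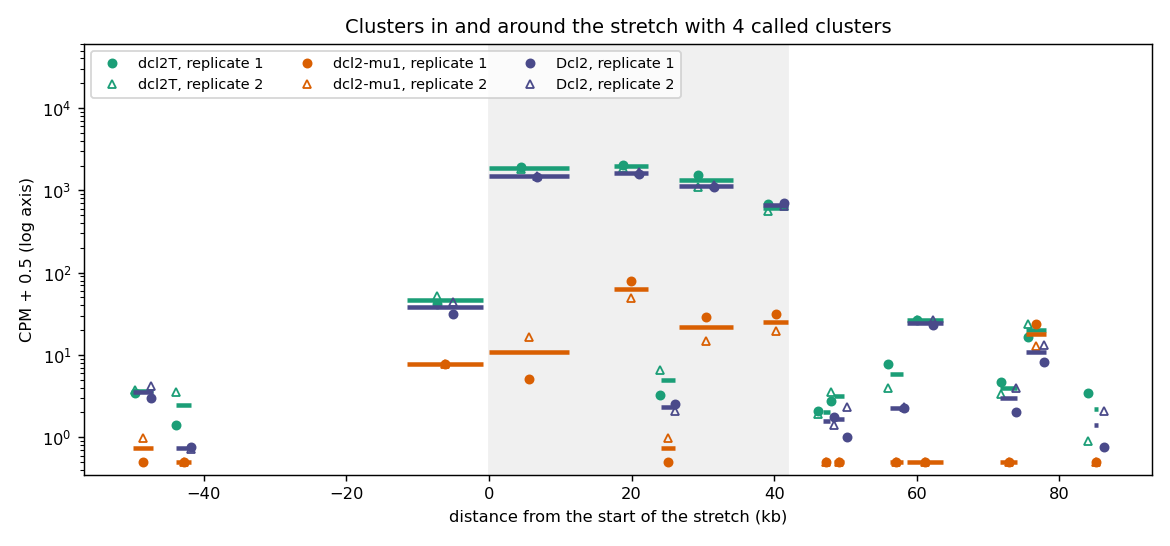
CPM plus 0.5 (vertical axis, log scale) of the 15 clusters in and within 50 kb of the stretch, by distance in kb from its start (horizontal axis), with the stretch shaded. Horizontal lines are genotype means over the length of a cluster and points are libraries. In the 4 called clusters of the shaded part every dcl2T and Dcl2 point lies at 561 CPM or above and every dcl2-mu1 point at 79.0 CPM or below. Cluster_84524, which also lies there and was not called, is at 6.10 CPM or below in every library, and 7 clusters have both dcl2-mu1 points at 0.5, which is no read.

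Among the other lower clusters, Cluster_81927 (85381796 to 85385385) was the most abundant in its bin. It held 1488 and 1546 CPM in dcl2T, 147 and 145 CPM in dcl2-mu1, and 1306 and 1842 CPM in Dcl2. The dcl2-mu1 values lay close together and below all others, at a log2 fold change of -3.78 (SE 0.29, edgeR adjusted p = 0.000487). Cluster_84035 (133948831 to 133951863) held 1519 and 1501 CPM in dcl2T, 326 and 395 CPM in dcl2-mu1, and 1659 and 1850.1 CPM in Dcl2, at a log2 fold change of -2.62 (SE 0.30, edgeR adjusted p = 0.004). Cluster_79293 (9086448 to 9089031) held 338 and 400.2 CPM in dcl2T, 13.3 and 7.10 CPM in dcl2-mu1, and 456 and 549.6 CPM in Dcl2. It was lowest in dcl2-mu1, and dcl2T also lay below Dcl2 without overlap, but in dcl2T the log2 fold change of -0.61 (SE 0.29) had an edgeR adjusted p of 1, while in dcl2-mu1 it was -6.04 (SE 0.36, edgeR adjusted p = 0.000112). Cluster_84514 (142943409 to 142945091) held 126 and 90.2 CPM in dcl2T, 21.5 and 16.4 CPM in dcl2-mu1, and 109 and 148 CPM in Dcl2, at a log2 fold change of -3.14 (SE 0.38, edgeR adjusted p = 0.00546).

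Clusters without any dcl2-mu1 read lay from one end of the chromosome to the other. Cluster_79278 (8711586 to 8718253) held 65.2 and 69.3 CPM in dcl2T and 50.2 and 52.6 CPM in Dcl2, and with 3 counts over both dcl2-mu1 libraries as the floor it was at least 103-fold lower in dcl2-mu1 than in Dcl2. Cluster_83666 (126110447 to 126110797) held 74.3 and 76.0 CPM in dcl2T and 60.3 and 53.0 CPM in Dcl2, and was at least 114-fold lower in dcl2-mu1 than in Dcl2. Cluster_84415 (141443406 to 141443780) held 44.5 and 47.1 CPM in dcl2T and 32.5 and 42.8 CPM in Dcl2, and was at least 75.8-fold lower. These 3 were called in 12 of 15 other fits, which do not include those with the low-count filter run again. The exceptions were the fits without a Dcl2 library and that of the 2 genotypes alone. Without a Dcl2 library the call depended on whether that filter was run again. Over the 18 lower clusters the number of other fits that made the call ran from 6 to 12 of 15. Cluster_84649 (145027060 to 145030136) held 62.4 and 36.0 CPM in dcl2T and 18.7 and 31.0 CPM in Dcl2, and was at least 49.9-fold lower in dcl2-mu1 than in Dcl2, with the call made in 9 of 15 other fits. Its dcl2T libraries lay above the Dcl2 libraries without overlap.

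The remaining lower clusters were weaker in reads. Cluster_81162 (64173062 to 64175363), Cluster_81531 (74412455 to 74419105), Cluster_83463 (121449773 to 121453543) and Cluster_84530 (143186117 to 143191092) had no dcl2-mu1 read either, and were at least 46.9-fold, 43.2-fold, 34.2-fold and 48.4-fold lower than in Dcl2. Of 15 other fits, 8 called Cluster_81162, 8 called Cluster_81531, 7 called Cluster_83463 and 12 called Cluster_84530. Cluster_79612 (17516770 to 17524943) held 20.7 and 26.0 CPM in dcl2T, 0 and 0.245 CPM in dcl2-mu1, and 25.5 and 15.7 CPM in Dcl2. That single dcl2-mu1 value is 1 read, and 6 of 15 other fits called the cluster. Of the 18, Cluster_83347 and Cluster_84514 were the ones not called in dcl2-mu1 against dcl2T, with edgeR adjusted p-values of 0.213 and 0.0115. In that comparison Cluster_83472 (121825370 to 121833474) was called instead, with 947 and 829 CPM in dcl2-mu1 against 3368 and 3015 CPM in dcl2T, a log2 fold change of -2.06 (SE 0.24, edgeR adjusted p = 0.00588). Against Dcl2, at 2448 and 2799 CPM, its log2 fold change of -1.93 (SE 0.24) passed the threshold on p and missed that on size.

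The 7 clusters higher in dcl2-mu1 lay apart from each other, each in a stretch of its own. The most abundant was Cluster_79685 (19443060 to 19456661), with 25.2 and 25.0 CPM in dcl2T, 422 and 309 CPM in dcl2-mu1, and 12.9 and 19.1 CPM in Dcl2. In dcl2-mu1 it rose by a log2 fold change of 4.13 (SE 0.36, edgeR adjusted p = 0.00101), and it made up 77.6% of its bin in dcl2-mu1, against 8.38% in Dcl2. Cluster_82355 (95714346 to 95716252) held 1.84 and 4.47 CPM in dcl2T, 118 and 96.7 CPM in dcl2-mu1, and 0.252 and 0 CPM in Dcl2. It had 1 read in both Dcl2 libraries together, and a log2 fold change in dcl2-mu1 of 9.11 (SE 0.90, edgeR adjusted p = 0.00185) that depends on that read. Cluster_84041 (134068835 to 134071017) held 6.65 and 7.11 CPM in dcl2T, 115 and 87.7 CPM in dcl2-mu1, and 5.04 and 6.37 CPM in Dcl2.

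In all 7 the dcl2-mu1 libraries were above the other 4. The contrast with Dcl2 chose these clusters, and the dcl2-mu1 libraries were the higher ones without overlap in 20.6% of all clusters tested. Against dcl2T that share was 17.8%. Cluster_82835 (107875276 to 107877666) held 3.44 and 4.27 CPM in dcl2T, 104 and 60.2 CPM in dcl2-mu1, and 0.504 and 0.683 CPM in Dcl2, so that dcl2T also stood above Dcl2, at a log2 fold change of 2.48 (SE 0.58) that did not pass (edgeR adjusted p = 0.365). Cluster_82973 (111201297 to 111204091) held 5.74 and 3.66 CPM in dcl2T, 117 and 70.0 CPM in dcl2-mu1, and 2.52 and 2.05 CPM in Dcl2. Cluster_82490 (98841690 to 98847590) and Cluster_82003 (87608159 to 87608927) rose in dcl2-mu1 by log2 fold changes of 4.00 (SE 0.52) and 6.51 (SE 0.77). The log2 fold changes of the 7 in dcl2T against Dcl2 ran from 0.11 to 4.24, none passing (lowest edgeR adjusted p 0.298). The 7 took 0.805 ± 0.172% of the chromosome 10 reads in dcl2-mu1, against 0.0241 ± 0.00311% in Dcl2 (SD, n = 2 each).

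Beyond the called clusters, many clusters of chromosome 10 had no read at all in dcl2-mu1. Among the 3073, 45 lacked reads in both dcl2T libraries (1.46%), 958 in both dcl2-mu1 libraries (31.2%) and 193 in both Dcl2 libraries (6.28%). Among the 41210 clusters of chromosomes 1 to 9 with at least 15 reads, the shares were 1.99% for dcl2T, 20.0% for dcl2-mu1 and 6.64% for Dcl2. For dcl2-mu1 the other chromosomes lay between 19.0% and 20.8%, all below chromosome 10. A cluster without a read can still have been expressed under the floor of 0.497 CPM that 3 counts over both dcl2-mu1 libraries allow.

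The excess on chromosome 10 was found in both dcl2-mu1 libraries and at equal depth. In dcl2-mu1 replicate 1 alone 65.9% of the chromosome 10 clusters had no read, against 61.1% on the other chromosomes, and in replicate 2 alone the shares were 37.7% and 26.0%. With all libraries thinned to 1950081 reads the shares with no read in either dcl2-mu1 library were 34.9% and 23.6%. Among clusters with at least 50 reads they were 15.6% and 5.44%. The excess at equal depth averaged -1.44 ± 0.451 percentage points in dcl2T, 8.10 ± 4.62 points in dcl2-mu1 and -1.55 ± 0.119 points in Dcl2 (SD, n = 2 each). These shares are a description. On every chromosome the same minimum of reads, summed over all the libraries, chose the clusters. A cluster with no dcl2-mu1 read therefore entered only through reads of dcl2T and Dcl2.

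The clusters without a dcl2-mu1 read were not evenly placed along the chromosome. The share ran from 12.7% in the first bin to 49.3% from 15 to 20 Mb, with a median of 33.4% over the 30 bins, against a median of 19.5% over 399 bins of the other chromosomes with at least 20 clusters. Of the 30 bins, 15 were above 33.4%, the 95th percentile of those 399, and 0 were above their highest, 51.4%. It was also high from 60 to 65 Mb (47.1%), from 70 to 90 Mb (40.4% to 45.8%) and from 90 to 95 Mb (46.9%). The last bin stood at 16.5%, and the bin from 105 to 110 Mb at 19.5%. In dcl2T no bin was above 4.26%.

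**Figure D5:**
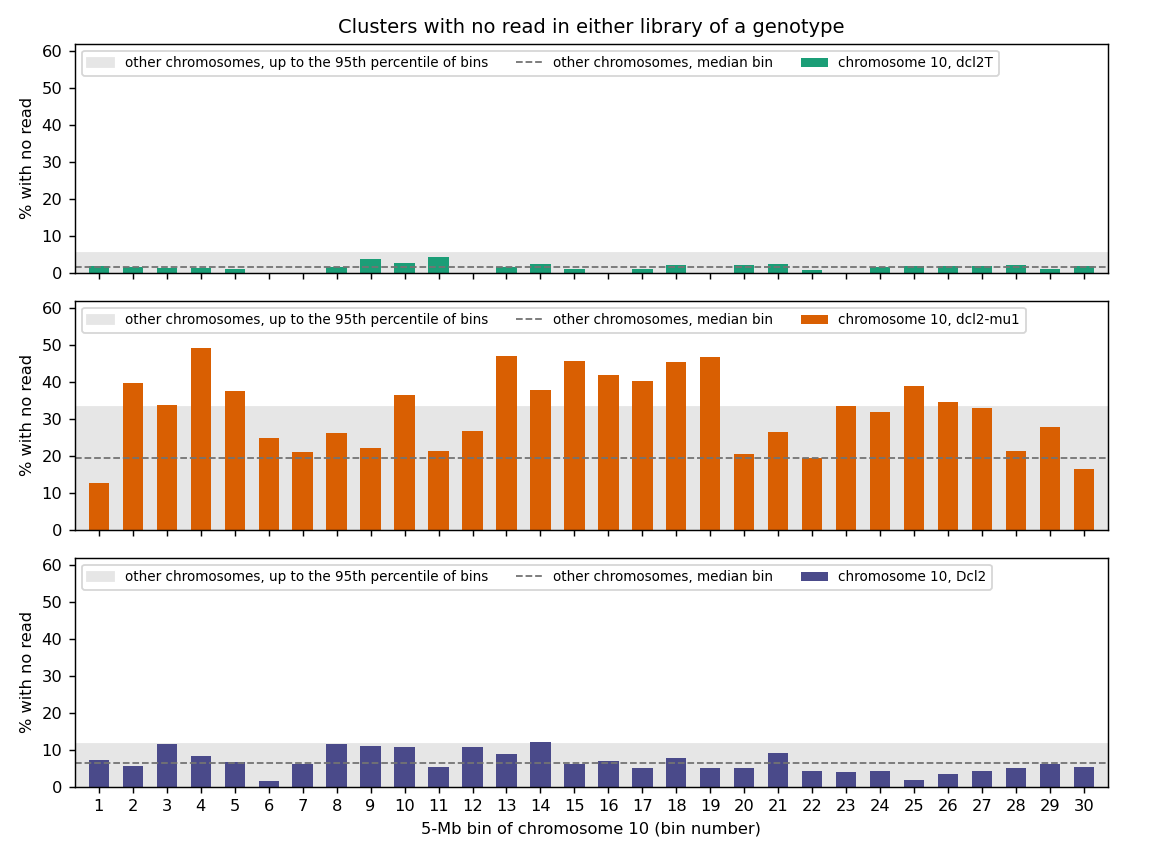
Percent of clusters with at least 15 reads that had no read in either library of a genotype (vertical axis), by 5-Mb bin of chromosome 10 (horizontal axis, bin number), for dcl2T at the top, then dcl2-mu1 and Dcl2. The dashed line is the median bin of the other chromosomes and the grey band reaches to their 95th percentile. For dcl2-mu1, 15 bars rise above the band, while the first and the last bar are low.

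The number of clusters detected at equal depth, with at least 5 counts after thinning, was 1328 ± 14.1 in dcl2T, 892 ± 31.8 in dcl2-mu1 and 1127 ± 14.1 in Dcl2 (SD, n = 2 each). These numbers are a description, since the minimum of 15 reads that chose the clusters was set on the sum of the same libraries. A cluster low in dcl2-mu1 entered through reads of the other genotypes, whose largest library was dcl2T replicate 2. The order depended on the minimum. With at least 20 counts the numbers were 300.5 ± 19.1 in dcl2T, 319.5 ± 43.1 in dcl2-mu1 and 277.5 ± 4.95 in Dcl2, so that the mean of dcl2-mu1 was then the highest and its libraries overlapped those of dcl2T.

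Although no cluster was called in dcl2T, the 3 lower and the 3 higher with the lowest p and no overlap between libraries are given here as clusters that were not called. Cluster_83670 (126203630 to 126204747) had no read in any dcl2T or dcl2-mu1 library and 19.4 and 35.3 CPM in Dcl2, and was at least 84.6-fold lower in dcl2T than in Dcl2 (edgeR adjusted p = 0.093). Cluster_80611 (49516208 to 49519338) held 0.229 and 1.22 CPM in dcl2T, no read in dcl2-mu1, and 31.0 and 38.0 CPM in Dcl2 (edgeR adjusted p = 0.126 for dcl2T). Cluster_79858 (23537838 to 23540056) held 1.61 and 0 CPM in dcl2T, no read in dcl2-mu1, and 24.5 and 41.2 CPM in Dcl2 (edgeR adjusted p = 0.374 for dcl2T). In all 3 the reads came almost wholly from the Dcl2 libraries, so both mutants stood low against the same 2 libraries.

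Of the 3 higher clusters, Cluster_84756 (146832941 to 146837509) and Cluster_84757 (146838522 to 146841058) are neighbours near the end of the chromosome. Cluster_84756 held 595 and 639.6 CPM in dcl2T, 434 and 245 CPM in dcl2-mu1, and 47.4 and 75.8 CPM in Dcl2. In dcl2T it stood at a log2 fold change of 3.18 (SE 0.33), whose edgeR adjusted p of 0.0134 missed the threshold, and 4 of 15 other fits called it, at adjusted p-values over all 15 of up to 0.584. Cluster_84757 held 52.5 and 77.2 CPM in dcl2T, 25.1 and 46.0 CPM in dcl2-mu1, and 5.80 and 9.33 CPM in Dcl2. Cluster_83924 (132229668 to 132233572) held 189 and 193 CPM in dcl2T, 186 and 241 CPM in dcl2-mu1, and 8.82 and 31.2 CPM in Dcl2. In these 3 clusters both mutants stood above the 2 Dcl2 libraries.

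The 10 most abundant clusters of the chromosome held 62.6% of its reads in dcl2T, 67.1% in dcl2-mu1 and 61.4% in Dcl2, and none was called against Dcl2. Cluster_80187 (34539950 to 34553536) held 4771 and 4570.2 CPM in dcl2T, 2250.2 and 2027 CPM in dcl2-mu1, and 4842 and 5701 CPM in Dcl2. It made up 89.9% of its bin in dcl2-mu1 and 95.2% in Dcl2, and its log2 fold change in dcl2-mu1 of -1.67 (SE 0.23, edgeR adjusted p = 0.0105) missed both thresholds. The dcl2-mu1 libraries were also below the other 4 in Cluster_83471 (121814047 to 121824829), the neighbour of Cluster_83472, with 3824 and 3445 CPM in dcl2T, 1573 and 1259 CPM in dcl2-mu1, and 2752 and 3145 CPM in Dcl2.

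Other abundant clusters were not all lower in dcl2-mu1. Cluster_83115 (114286588 to 114291566) held 5246 and 4977 CPM in dcl2T, 6315 and 5621 CPM in dcl2-mu1, and 4390.2 and 4830.3 CPM in Dcl2, at a log2 fold change in dcl2-mu1 of 0.00. Its standard error, derived from the fold change itself, is unreliable at so small a value and is left out. Cluster_84323 (139784708 to 139795707) held 3325 and 3246 CPM in dcl2T, 4953 and 3877 CPM in dcl2-mu1, and 2736 and 3473 CPM in Dcl2. Its neighbour Cluster_84325 (139799840 to 139805664) had nearly equal values in every library, at 3331 and 3239 CPM in dcl2T, 4863 and 4016 CPM in dcl2-mu1, and 2835 and 3444 CPM in Dcl2. The log2 fold changes of Cluster_84323 and Cluster_84325 in dcl2-mu1 were 0.13 (SE 0.22, edgeR adjusted p = 0.870) and 0.12 (SE 0.22, edgeR adjusted p = 0.876). Whether reads that match both were divided between these neighbours was not tested. Cluster_81452 (72286346 to 72288425) and Cluster_81549 (74892213 to 74893269), in the bin from 70 to 75 Mb, had log2 fold changes in dcl2-mu1 of -1.56 (SE 0.29, edgeR adjusted p = 0.0384) and -1.07 (SE 0.27, edgeR adjusted p = 0.115).

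The most abundant cluster of a called bin did not always move with it. From 50 to 55 Mb the bin was lower in dcl2-mu1 at a log2 fold change of -0.48 (SE 0.10, edgeR adjusted p = 0.0122). Its largest cluster, Cluster_80779 (53878687 to 53880058), held 237 and 201 CPM in dcl2-mu1 against 164 and 195 CPM in Dcl2. After TMM scaling the log2 fold change of that cluster was -0.08 (SE 0.29, edgeR adjusted p = 0.944). From 80 to 85 Mb, at -0.39 (SE 0.11, edgeR adjusted p = 0.0324), Cluster_81879 (84244213 to 84245927) held 42.0 and 19.8 CPM in dcl2-mu1 against 16.4 and 18.4 CPM in Dcl2. Its log2 fold change was 0.39 (SE 0.49, edgeR adjusted p = 0.787). Cluster_80505 (46657800 to 46660802), Cluster_82584 (101074301 to 101077468) and Cluster_83779 (129532446 to 129542595) stood at -1.18 (SE 0.53), -2.88 (SE 1.09) and -1.09 (SE 0.29) on the log2 scale in dcl2-mu1, none of them called. Of 208 siRNA loci listed by the study, 18 overlapped a cluster of the table and 0 had both edges within 50 bp of one. Whether that list uses the same genome build as the clusters was not tested. The one of the 3073 clusters that overlapped a listed chromosome 10 locus, Cluster_79084 (4506143 to 4507435), held 2.52 and 1.42 CPM in dcl2T, 0 and 0.490 CPM in dcl2-mu1, and 1.76 and 4.10 CPM in Dcl2, too few reads to show a difference at this depth.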

How the data were processed

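Pollen small RNA was measured in 6 libraries of 3 genotypes, grouped by their labels. The authors trimmed reads with cutadapt, removed structural RNA with bowtie2 and called clusters with ShortStack at a stated minimum of 5 CPM. The deposited table also held clusters below that minimum in these 6 libraries, some with no read. How that minimum was applied to the table was not tested. What the authors deposited are unnormalized counts, per cluster and library, with all read lengths pooled. Coordinates are as deposited, their build being not given in the sources used here. A further deposited count column equalled the sum of the 6 libraries in all 85421 clusters.

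Clusters were kept with filterByExpr (minimum count 10, minimum total 15), scaled by TMM and fitted over all 6 libraries with glmQLFit and glmQLFTest in edgeR 4.0.16 (R 4.3.3), p-values being adjusted by the Benjamini-Hochberg method over 22558 clusters or 429 bins. CPM used whole library totals, ratios against no read a floor of 3 counts over 2 libraries, and the common dispersion of clusters was 0.685. Standard errors were derived from the fold change and F. P-values and floors cover only the spread between these libraries and counting error. Bins were 5 Mb wide. DESeq2 1.42.0, other scalings, filters, thinned counts and libraries left out were alternatives, and the scripts were tested on simulated data.

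Named clusters were, per comparison, up to 10 lower and 10 higher called clusters by abundance, the more abundant of any within 10 kb, and where fewer than 3 were called, the 3 with the lowest p whose libraries did not overlap. The 10 most abundant, the largest of each called bin and any overlapping a listed siRNA locus were added. All called clusters were then named. Clusters, bins and rules were chosen with earlier results of these data known. No sequence was printed, as no genome of the build was used.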

Additional observations from a re-analysis of the deposited data

How the results depend on the processing

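Counts of chromosome 10 calls follow as lower and higher clusters, then lower and higher bins. In dcl2T against Dcl2, with 0 and 0 clusters, DESeq2 gave 4 and 6, no filter on low counts 5 and 9, library size alone 0 and 1, and an adjusted p of 0.05 with a log2 fold change of 1 gave 0 and 1. With 1 library left out the counts ran from 0 to 6 lower and from 0 to 5 higher clusters, above 0 only where the filter was run again. The 1 lower bin became 0 with library size alone, without the most abundant cluster of each bin, with 10-Mb bins, at an adjusted p of 0.01 and without single libraries (range 0 to 1), and 4 with DESeq2.

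In dcl2-mu1 against Dcl2, with 18 and 7 clusters, DESeq2 gave 82 and 22, no filter 57 and 22, the looser thresholds 43 and 18, library size alone 21 and 16, and a fit of the 2 genotypes alone 0 and 0. With 1 library left out the counts ran from 0 to 91 lower and from 0 to 21 higher clusters, the highest where the filter was run again. Of 12 and 2 bins, 10-Mb bins gave 6 and 1, bins shifted by 2.5 Mb 11 and 1, an adjusted p of 0.01 gave 9 and 1, and leaving out 1 library gave 9 to 15 and 1 to 3.

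In dcl2-mu1 against dcl2T, with 17 and 5 clusters, DESeq2 gave 64 and 20, no filter 58 and 12, the looser thresholds 31 and 12, library size alone 17 and 9, thinned counts 14 and 3, a filter of 5 CPM in 2 libraries 12 and 3, and the 2 genotypes alone 0 and 0. With 1 library left out the counts ran from 4 to 85 lower and from 0 to 12 higher clusters, from 6 to 13 lower bins and from 1 to 3 higher bins. Of 12 and 2 bins, an adjusted p of 0.01 gave 6 and 1, and no 10-Mb bin was higher (0).

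No pairing by replicate number was seen across clusters, as the deviations of same-numbered libraries correlated at 0.00440, -0.00810 and -0.0122. These values cannot show whether the plants were grown or processed in pairs. With the replicate block, dcl2T against Dcl2 gave 0 and 2 clusters and 0 lower bins, dcl2-mu1 against Dcl2 26 and 15 clusters and 12 and 2 bins, and dcl2-mu1 against dcl2T 24 and 8 clusters and 10 and 2 bins.

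The difference in clusters detected at equal depth turned with a minimum of 20 counts, to 42 more in dcl2-mu1 than in Dcl2 and 19 more than in dcl2T. The median log2 fold change of chromosome 10 clusters in dcl2T became -0.037 with a filter of 5 CPM. The excess of clusters with no dcl2-mu1 read, 11.2 percentage points, ran from 4.83 to 11.7 points with 1 dcl2-mu1 library, and was 10.2 points at a minimum of 50 reads, chosen after seeing the data as were the filter run again and the counts without the stretch. The causes of these shifts were not tested. With 2 libraries each, exact tests of single values could not go below p = 0.33, and no read in either dcl2-mu1 library allows up to 0.497 CPM.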
